A study of Mus musculus with 123 samples.

Results

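Myosin light chains wrap around the neck of each cardiac myosin heavy chain, 1 regulatory and 1 essential chain to each head, and the heart builds them from chamber-specific genes. Myl2 encodes the regulatory light chain of ventricular muscle and Myl7 that of atrial muscle, Myl3 encodes the essential light chain of ventricular muscle and Myl4 the atrial and embryonic essential chain, and Mylk3 encodes the cardiac myosin light chain kinase, which phosphorylates the regulatory chain. In the early heart tube the atrial and ventricular genes overlap, and they become restricted to their chambers as the heart matures, which is why the pairs Myl2 with Myl7 and Myl3 with Myl4 are read as marks of chamber identity. These 5 genes, out of 23337 in the count table, were chosen by name for their function and were followed through single CMs.

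The cells were αMHC-GFP+ cells from hearts of the strain aMHC-GFP, in which the α-myosin heavy chain promoter (αMHC, the promoter of Myh6) drives GFP, taken at the embryonic stages E9.5 and E12.5 (days after conception) or on postnatal day 1 (P1), with no treatment and no other allele in the labels. Of 123 cells, 112 had 2000 or more genes and were used: 42 of 42 from E9.5, 29 of 29 from E12.5 and 41 of 52 from P1. Cell titles fall into naming sets, which may stand for chips or runs: 14 E9.5 cells are in set C and 28 in set N530, 20 E12.5 cells are in set C, 8 in set N523 and 1 in set E12-5b, and all P1 cells are in set C. The labels name no animal, litter or chip, so that each time point is 1 sample, cells are not replicates, and no p-value is given. The reporter selects cells by a cardiomyocyte promoter from whole hearts, so that atrial, ventricular and other CMs came together, and the embryonic hearts were digested with collagenase but the P1 hearts with Liberase, so that age and digestion cannot be told apart.

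The sequences of the 2 chamber pairs show how far reads of 75 bases can tell the members apart. The windows of coding sequence around the longest run that each pair shares exactly are given with that run in capitals (GENCODE vM21 transcripts on GRCm38, 5′ to 3′).
Myl2: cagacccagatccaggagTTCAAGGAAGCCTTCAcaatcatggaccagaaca
Myl7: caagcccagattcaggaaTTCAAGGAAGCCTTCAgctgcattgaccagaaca
Myl3: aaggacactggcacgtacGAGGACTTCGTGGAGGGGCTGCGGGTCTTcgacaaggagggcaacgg
Myl4: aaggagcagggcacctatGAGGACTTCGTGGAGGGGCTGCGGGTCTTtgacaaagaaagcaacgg
The Myl2 window joins exons 2 and 3 (chr5:122101812-122102720, plus strand) and the Myl7 window joins exons 2 and 3 (chr11:5898211-5898452, minus strand). The Myl3 window lies in exon 4 (chr9:110767973-110768037, plus strand) and the Myl4 window in exon 6 (chr11:104584504-104584568, plus strand). The coding sequences of Myl2 and Myl7 (501 and 528 bases) were identical at 65.6% of 500 aligned bases, with a longest shared run of 16 bases. Those of Myl3 and Myl4 (615 and 582 bases) were identical at 78.1% of 579 aligned bases, with a longest shared run of 29 bases. Neither pair shared a word of 75 bases, and the counts of the members are therefore not those of near-identical copies.

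The 5 genes lie far from one another, Myl4 and Myl7 at distant positions of 1 chromosome. Myl2 spans chr5:122100951-122113472 and Myl3 chr9:110741861-110769798, both on the plus strand. Myl4 spans chr11:104550663-104595753 on the plus strand, Myl7 chr11:5896637-5898782 on the minus strand and Mylk3 chr8:85324303-85386345 on the minus strand. The 250 bases before the transcription start of Myl7 and of Myl3 are printed because each holds a CArG box, the element bound by serum response factor, found on either strand in 1.40% of 27025 RefSeq promoter windows of this length. Capitals mark the CArG box, GATAA (the core of GATA factor sites) and CATTCC (the core of TEAD factor sites), on either strand and without overlap among them (RefSeq, GRCm38.p6, read along the gene).
Myl7, chr11:5898783-5899032, minus strand: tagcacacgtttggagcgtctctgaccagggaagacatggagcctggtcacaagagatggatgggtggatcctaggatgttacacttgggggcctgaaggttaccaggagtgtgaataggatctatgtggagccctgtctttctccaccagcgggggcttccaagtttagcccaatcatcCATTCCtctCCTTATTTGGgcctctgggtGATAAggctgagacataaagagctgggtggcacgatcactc
Myl3, chr9:110763428-110763677, plus strand: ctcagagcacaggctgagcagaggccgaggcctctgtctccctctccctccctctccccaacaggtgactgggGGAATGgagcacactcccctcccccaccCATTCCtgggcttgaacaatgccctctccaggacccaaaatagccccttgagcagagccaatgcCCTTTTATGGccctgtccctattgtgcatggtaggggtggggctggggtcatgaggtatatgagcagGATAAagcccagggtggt
In Myl7, CATTCC, the CArG box and GATAA begin 70, 61 and 41 bases before the start. In Myl3 the CArG box begins 85 and GATAA 18 bases before the start, and CATTCC occurs 2 times, beginning 177 and 149 bases before it. GATAA occurred in 23.0% and CATTCC in 12.6% of all windows. The same window of Myl4 held none of the 8 motifs searched (these 3, the MEF2 site, the TATA box TATAAA, the E-box CANNTG, the T-box core AGGTGT and the Nkx2-5 core CACTTG, which is also a form of the E-box). Beside the marked motifs, the Myl7 and Myl3 windows each held 1 E-box, which in Myl7 was also CACTTG. For Mylk3, the window of the start at chr8:85381041 held GATAA 3 times and 1 E-box that was also CACTTG. That of the start at chr8:85365324 held CATTCC 1 time, and neither held a CArG box. The RefSeq starts of Myl2 lie 7762 and 8227 bases before its GENCODE start, and their windows are not shown. A match is a stretch of letters and was not tested as a binding site.

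The depth differed by time point and set. Total counts were 268301 to 588443 in E9.5 set C, 1437114 to 6351742 in N530, 148258 to 738496 in E12.5 set C, 2953992 to 7711355 in N523 and 69522 to 327360 at P1, so that absence in a P1 cell is weaker evidence than absence in an N530 or N523 cell. No 2 cells held identical counts. The summed CPM (counts per 1000000) of 7 cardiomyocyte genes had medians of 45994, 33247 and 81451 at E9.5, E12.5 and P1. It was under 1000 CPM in 3 E9.5 cells of set C and 1 P1 cell. In these 4 cells the light chains were at 0 to 46.5 CPM, which is the level measured where the CM genes are low, and the P1 cell held 7507 CPM of 5 endothelial genes. At E9.5 the endothelial genes reached 1843 CPM in 1 of the cells low in CM genes and 1246 CPM in cell 34, whose CM genes summed to 67997 CPM. At E12.5 they reached at most 13.5 CPM, with Pecam1, Tek and Emcn at 0. Fibroblast genes reached 4007, 534 and 112 CPM at the 3 ages, epicardial genes 2695, 510 and 372 CPM, macrophage genes 392, 229 and 636 CPM, and the 3 erythroid genes in the table at most 2.12 CPM. The medians of 4 smooth muscle genes, which embryonic CMs also express, were 4373, 2324 and 1110 CPM. The part of these genes in the results below was not tested beyond leaving out the 4 cells low in cardiomyocyte genes.

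Myl2, the ventricular regulatory chain, rose with age. Its level in single cells ran from 0 over a median of 334 to 2695 CPM at E9.5, from 0 over 2921 to 5846 CPM at E12.5 and from 0 over 6875 to 11491 CPM at P1. The ranges of single cells overlapped between all ages, while the medians and the pooled levels of the sets were in 1 order: pooled CPM was 605 in set C and 742 in N530 at E9.5, 2637 in set C and 2678 in N523 at E12.5, and 6344 at P1 (95% Poisson interval 6284 to 6404, counting error only). From E9.5 to P1 the pooled level rose 8.64-fold (log2 ratio 3.11, SD 0.21 over 2 combinations of naming sets). The steps were 3.62-fold from E9.5 to E12.5 (log2 ratio 1.85, SD 0.17 over 4 combinations that reuse the same pools) and 2.39-fold from E12.5 to P1 (1.26, SD 0.016 over 2 combinations). Each was larger than the spread between the embryonic sets. All P1 cells are in set C, so that the SD of a ratio with P1 holds no spread of P1. A ratio was called where it reached 4-fold, kept its direction in every combination of naming sets and stood at 50 CPM or more at the higher age. Only the change from E9.5 to P1 met this for Myl2 on pooled CPM, while against E9.5 set C alone the step to E12.5 also passed 4-fold (log2 ratios 2.12 and 2.15).

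Myl7, the atrial regulatory chain, was the most abundant of the 5 per length at E9.5, and it fell by P1. Its median over E9.5 cells was 29419 TPM (transcripts per 1000000), with Myl3 next at 5781 TPM, and at E12.5 it was 10482 TPM, with Myl2 next at 8257 TPM. Cells ranged from 0 over a median of 7281 to 28056 CPM at E9.5, from 318 over 3265 to 34330 CPM at E12.5 and from 0 over 298 to 23043 CPM at P1. The highest P1 cell was thus close to the highest embryonic cells, while the median P1 cell was far below them. Pooled levels were 6179 CPM in set C and 12602 CPM in N530 at E9.5, 6206 in set C and 7650 in N523 at E12.5, and 2447 CPM at P1 (2410 to 2485). The fall from E9.5 to P1 was 5.00-fold (log2 ratio -2.32, SD 0.73) and was called, although against set C alone it was -1.34. The ratio of E12.5 to E9.5 was -0.74 with an SD of 0.62 over the sets, and its direction depended on the set: against E9.5 set C it was 0.0062 for set C and 0.31 for N523 of E12.5. From E12.5 to P1 it was -1.59 (SD 0.21), and 1 cell, E12.5 cell 25 of N523, supplied 43% of the E12.5 counts. Without this cell alone the E12.5 level was 4616 CPM, and the ratios were -0.92 for P1 against E12.5 and -1.41 for E12.5 against E9.5. At P1 the cell with the most counts held 20.7% of them. On medians over cells, the fall from E9.5 was -4.61 and that from E12.5 was -3.46.

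**Figure D1:**
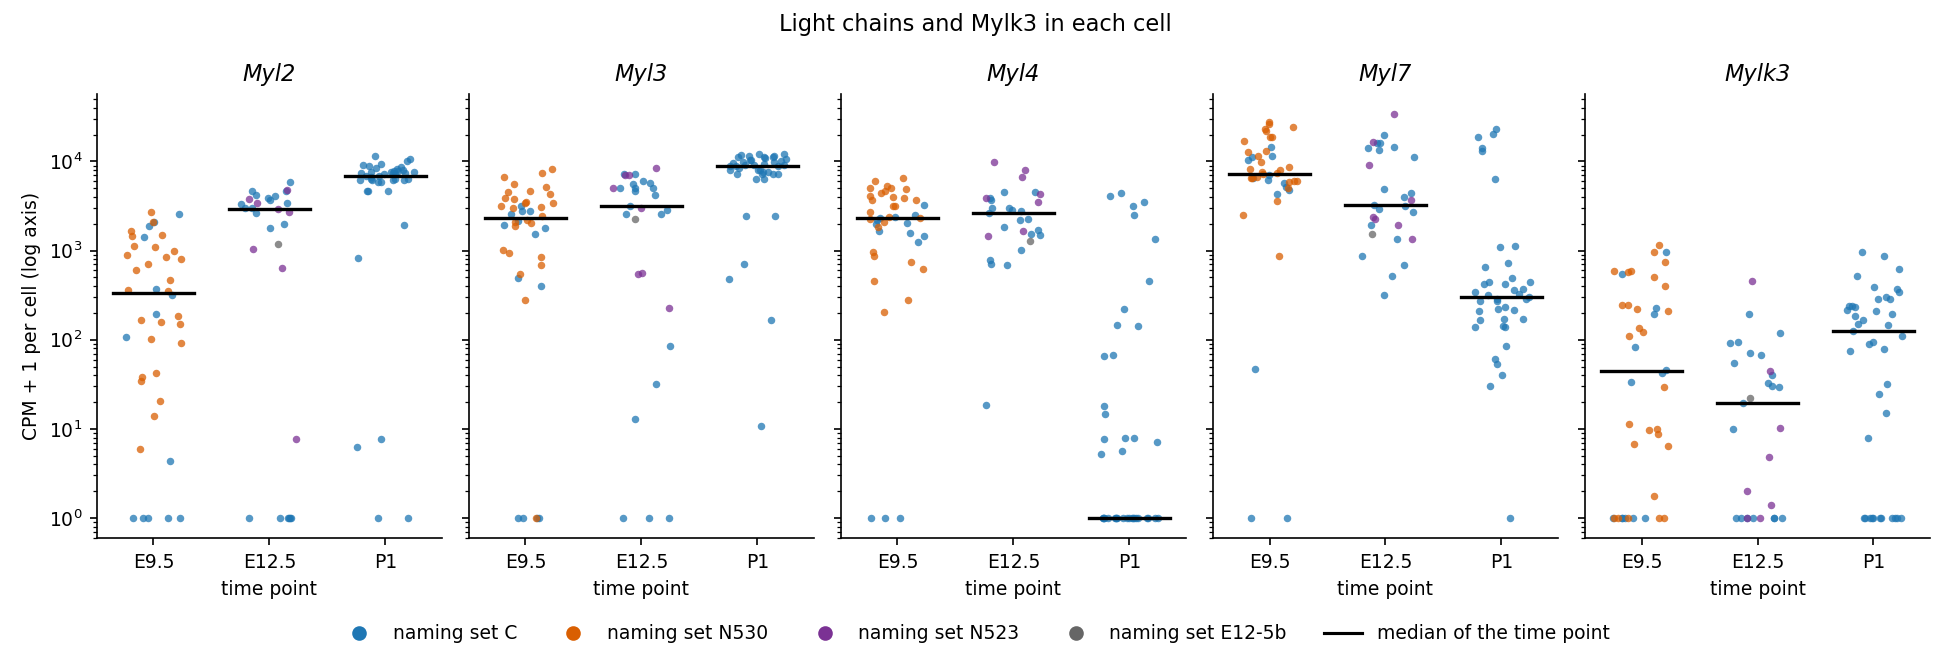
CPM + 1 of each of the 5 members in every kept cell (log axis) by time point, with naming sets in different colours; each point is 1 cell and the bar is the median over cells. Myl2 and Myl3 climb from medians of 334 and 2309 CPM at E9.5 to 6875 and 8943 CPM at P1, while Myl7 falls from 7281 to 298 CPM and leaves a few P1 cells up to 23043 CPM.

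Myl3, the ventricular essential chain, was already high at E9.5, and its rise depended on the E9.5 set. Its cells ranged from 0 over a median of 2309 to 8163 CPM at E9.5, from 0 over 3146 to 8374 CPM at E12.5 and from 9.72 over 8943 to 12009 CPM at P1. Pooled levels were 1398 (set C) and 3589 (N530), 3583 (set C) and 4368 (N523), and 8080.0 CPM. No change of Myl3 was called. P1 exceeded E12.5 1.92-fold (log2 ratio 0.94, SD 0.20), a difference larger than the spread between the E12.5 sets, and exceeded E9.5 2.33-fold (1.22, SD 0.96). Against E9.5 set C alone the log2 ratio was 2.53, past 4-fold, and against N530 it was 1.17. E12.5 and E9.5 differed by less than the spread between their sets (0.28, SD 0.80).

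Myl4, the atrial and embryonic essential chain, was found in nearly every embryonic cell and in fewer P1 cells. Cells ranged from 0 over a median of 2330.2 to 6476 CPM at E9.5, from 17.6 over 2635 to 9787 CPM at E12.5 and from 0 over 0 to 4389 CPM at P1. It was found, at 1 count or more, in 39 of 42, 29 of 29 and 20 of 41 cells (48.8% at P1, 32.9 to 64.9), and in 12 of the 18 P1 cells with 3000 or more genes. Pooled levels were 1603 (set C) and 3163 (N530), 2135 (set C) and 5169 (N523), and 453 CPM (437 to 470). The level at P1 was 6.79-fold lower than at E9.5 (log2 ratio -2.76, SD 0.69) and 10.2-fold lower than at E12.5 (-3.35, SD 0.90), and both falls were called. Against set C alone the first was -1.82 and the second -2.24. E12.5 and E9.5 did not differ beyond the spread between sets (0.59, SD 0.93, range -0.57 to 1.69).

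Mylk3, the kinase, was low throughout, lowest at E12.5, and its E12.5 level rested on 1 cell. Cells ranged from 0 over a median of 43.1 to 1167 CPM at E9.5, from 0 over 18.4 to 454 CPM at E12.5 and from 0 over 123 to 953 CPM at P1. It was found in 31 of 42, 20 of 29 and 30 of 41 cells. Pooled levels were 144 (set C) and 270 (N530), 48.3 (set C) and 89.9 (N523), and 204 CPM (193 to 215). The ratio of E12.5 to E9.5 was -1.67 (SD 0.74, range -2.48 to -0.68) and that of P1 to E12.5 1.30 (SD 0.63, range 1.18 to 2.08). Both were larger than the spread between the embryonic sets and under 4-fold, so that no change was called. A single cell, E12.5 cell 29 of N523, held 84.0% of the E12.5 counts of Mylk3. Without this cell alone the E12.5 level was 15.6 CPM, the ratio of P1 to E12.5 moved to 3.71 and that of E12.5 to E9.5 to -4.08, both past 4-fold. The direction of the ratio of P1 to E9.5 depended on the set, from -0.41 to 0.50.

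The calls of the members stand beside those of all tested genes, without a reading of the share, since 5 genes are few. From E9.5 to P1, 7.643% of 4684 tested genes were called higher and 19.19% lower, and of the 5 members 1 was called higher (Myl2) and 2 lower (Myl4 and Myl7). From E12.5 to P1, 10.1% of 4180 genes were called higher and 15.29% lower, and of the members 0 were called higher and 1 lower (Myl4). From E9.5 to E12.5, 5.141% of 4863 genes were called higher and 12.48% lower, and 0 of 5 members in either direction. The median log2 ratio of all tested genes was -0.60, -0.32 and -0.20 in these comparisons. The 2 comparisons with P1 share their P1 cells. Scaling by TMM factors would add 0.17, -0.26 and 0.43 to each ratio, and no member changed its direction under it, but the rise of Myl2 from E9.5 to E12.5 then passed 4-fold (2.28).

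**Figure D2:**
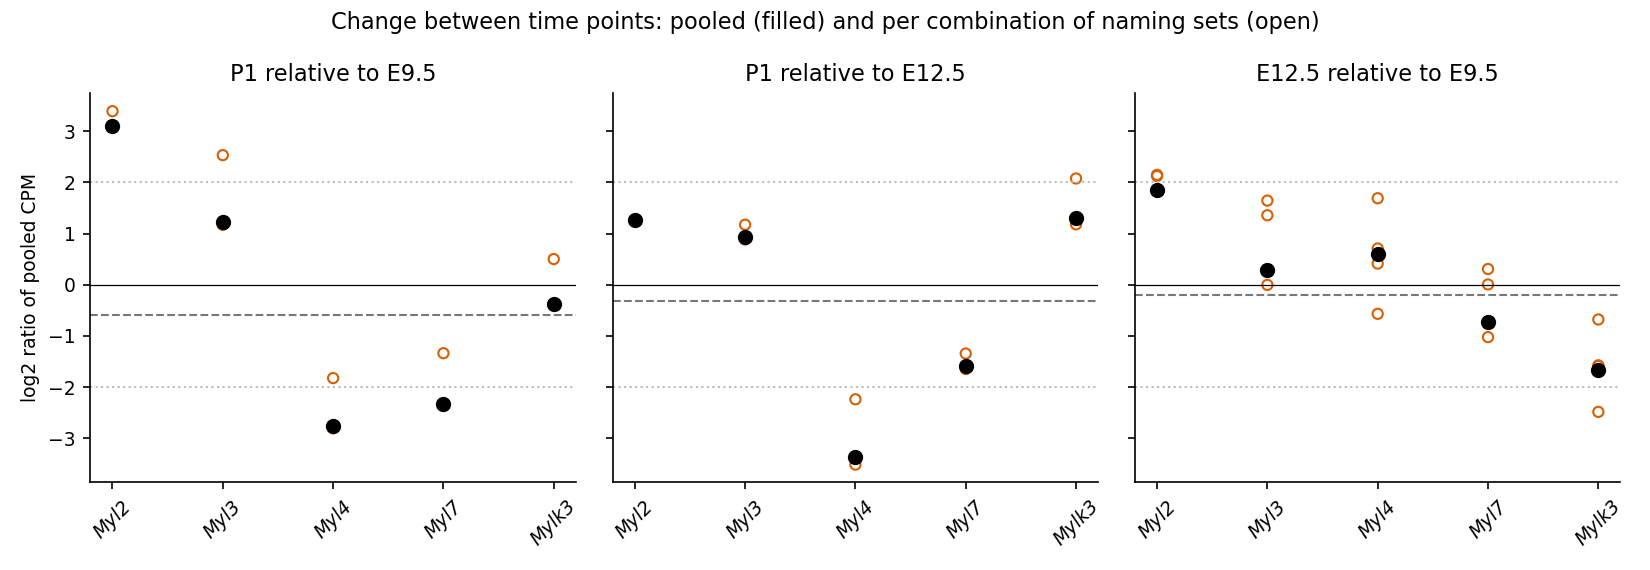
Log2 ratio of pooled CPM of the 5 members for each pair of time points; filled points are all kept cells, open points are single combinations of naming sets, the dashed line is the median of all tested genes and the dotted lines mark a 4-fold change. Myl2 stands at 3.11 and Myl4 and Myl7 at -2.76 and -2.32 for P1 to E9.5, and the open points of Myl4, Myl7 and Myl3 for E12.5 to E9.5 lie on both sides of 0.

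At all ages most cells held transcripts of both regulatory chains. Myl2 and Myl7 were found together at E9.5 in 37 of 42 cells (88.1%, exact binomial 95% interval 74.4 to 96.02). At E12.5 the pair was in 23 of 29 cells (79.3%, 60.3 to 92.01). P1 cells held it in 38 of 41 cases (92.7%, 80.1 to 98.5). The naming sets, which differ in depth and in the cells low in cardiomyocyte genes, differed in this share: 9 of 14 cells of set C (64.3%, 35.1 to 87.2) against 28 of 28 of N530 (100%, 87.7 to 100) at E9.5, and 14 of 20 of set C (70%, 45.7 to 88.1) against 8 of 8 of N523 (100%, 63.1 to 100) at E12.5. Of the 5 set C cells without the pair at E9.5, 3 were the cells low in cardiomyocyte genes. Without such cells the pair was in 37 of 39 E9.5 cells (94.9%, 82.7 to 99.4) and 38 of 40 P1 cells (95%), and no E12.5 cell was left out. The embryonic cells without the pair held Myl7 alone or neither gene. There were 3 such cells with Myl7 alone at E9.5 and 6 at E12.5, and 0 embryonic cells with Myl2 alone. At P1, 1 cell held Myl2 alone and 2 held Myl7 alone. After thinning each cell to 100000 counts, the pair was found in 85.7%, 75.9% and 89.5% of cells. At this equal depth Myl2 was found in 9 of 14 cells of set C, the 3 cells low in cardiomyocyte genes among the 14, and 27 of 28 of N530 at E9.5, and in 14 of 20 of set C and 7 of 8 of N523 at E12.5.

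The level at which the pair was held differed with age. At 1000 CPM or more of each gene, a bound chosen after the values were seen, 11 of 42 cells held the pair at E9.5 (26.2%, 13.9 to 42.04). At E12.5 these were 17 of 29 cells (58.6%, 38.9 to 76.5), and at P1 only 4 of 41 (9.76%, 2.72 to 23.1). At E9.5 the remaining cells at this level were 27 with Myl7 alone and 0 with Myl2 alone, and at P1 they were 4 with Myl7 alone and 32 with Myl2 alone. At E12.5 there were 8 with Myl7 alone and 4 with Myl2 alone. The detection of Myl7 in P1 cells therefore rested for most cells on levels under 1000 CPM. The P1 cell low in cardiomyocyte genes held 29.2 CPM of Myl7, and the median P1 cell 298 CPM. Whether RNA from other cells adds to such levels was not tested.

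Myl2 met Myl4 in the same embryonic cells, but in fewer P1 cells. The pair was seen in 37 of 42 cells at E9.5 (88.1%) and in 23 of 29 at E12.5 (79.3%), but at P1 in 19 of 41 (46.3%, 30.7 to 62.6). In set C it was in 9 of 14 cells at E9.5 and 14 of 20 at E12.5, and in N530 and N523 in every cell. Of the P1 cells, 20 held Myl2 without Myl4. At 10 counts or more of each gene the P1 share was 19.5% (8 cells), and the embryonic shares were 85.7% and 79.3%. The essential pair Myl3 and Myl4 was found in 37, 26 and 20 cells.

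**Figure D3:**
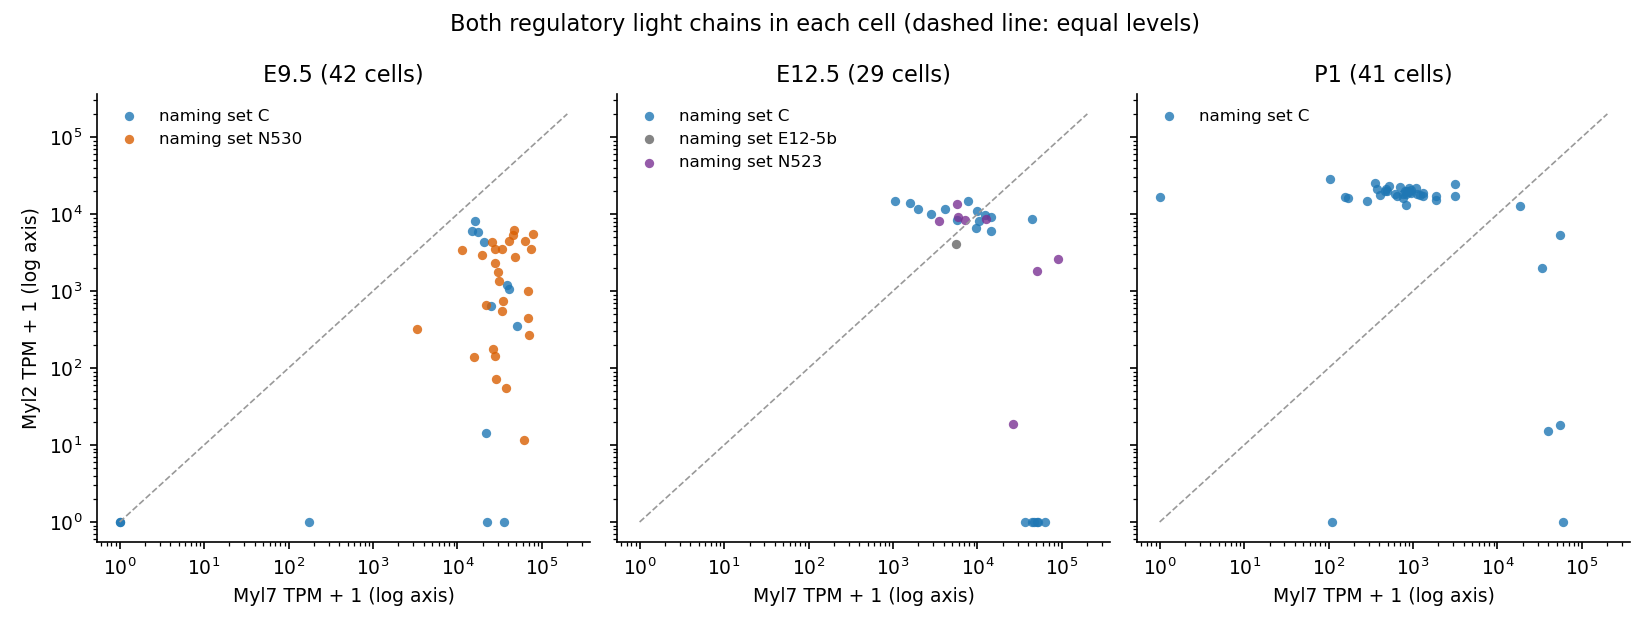
Myl2 (vertical axis) against Myl7 (horizontal axis), both as TPM + 1 on log axes, in every kept cell, 1 panel per time point, with naming sets in different colours; the dashed line marks equal levels. The 40 E9.5 cells with 10 or more summed counts of Myl2 and Myl7, 3 of them without Myl2, lie on the Myl7 side of the line, E12.5 cells lie on both sides (12 at a Myl2 share of 50% or more and 17 under it), and of the 40 P1 cells with 10 or more such counts 34 lie on the Myl2 side and 6 on the other. Among the 3 E9.5 cells without Myl2, cell 8 was low in cardiomyocyte genes.

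The make-up of the regulatory chains was compared per length, on the deposited TPM, as the share of Myl2 in the sum of Myl2 and Myl7 in each cell with 10 or more counts of the pair. At E9.5 it ran from 0% over a median of 3.52% to 33.5% in 40 cells (median 2.52% in set C and 4.94% in N530). At E12.5 it ran from 0% over 41.9% to 93.3% in 29 cells (median 42.2% in set C and 47.2% in N523). At P1 it ran from 0% over 95.7% to 100% in 40 cells. Myl7 was thus the main regulatory transcript in every E9.5 cell with a share, whereas E12.5 cells lay on both sides of 50%. The E9.5 cells with a share include cell 8 of set C, low in cardiomyocyte genes, whose 0% rests on 18 counts of Myl7. As a description by ranges, not cell types, 30 E9.5 cells lay at or under 10% and 10 above it. At E12.5, 9 lay at or under 10%, 19 between and 1 at 90% or more, and at P1 the numbers were 5, 4 and 31. Within 5 percentage points of the lower bound lay 13 E9.5 and 2 P1 cells, and of the upper bound 3 E12.5 and 8 P1 cells. The 19 E12.5 cells in between had a median of 4189 genes and the 9 at or under 10% had 4043. Doublets were not called, and their part in cells holding both genes was not tested.

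The essential chains changed in the same direction from a more even start. The share of Myl3 in the sum of Myl3 and Myl4 had a median of 49.3% at E9.5 (39 cells, 45.8% in set C and 52.7% in N530), 64.3% at E12.5 (29 cells, 71.4% in set C and 38.97% in N523) and 99.98% at P1 (40 cells). At E9.5, 36 of 39 cells lay between 10% and 90%. At P1, 34 of 40 lay at 90% or more. The 2 sets at E12.5 lay on either side of the E9.5 median, so that no order of E9.5 and E12.5 could be read for this share.

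The summed light chains changed less than their make-up. The median over cells of the TPM of Myl2, Myl3, Myl4 and Myl7 together was 42014, 36750 and 39175 at the 3 ages in order. The regulatory pair had medians of 31518, 20966 and 20153 TPM and the essential pair 11237, 12439 and 16468 TPM. The quartiles of the 4-gene sum overlapped between all ages (33184 to 62747 TPM, 30464 to 53646 TPM and 33582 to 42020 TPM).

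**Figure D4:**
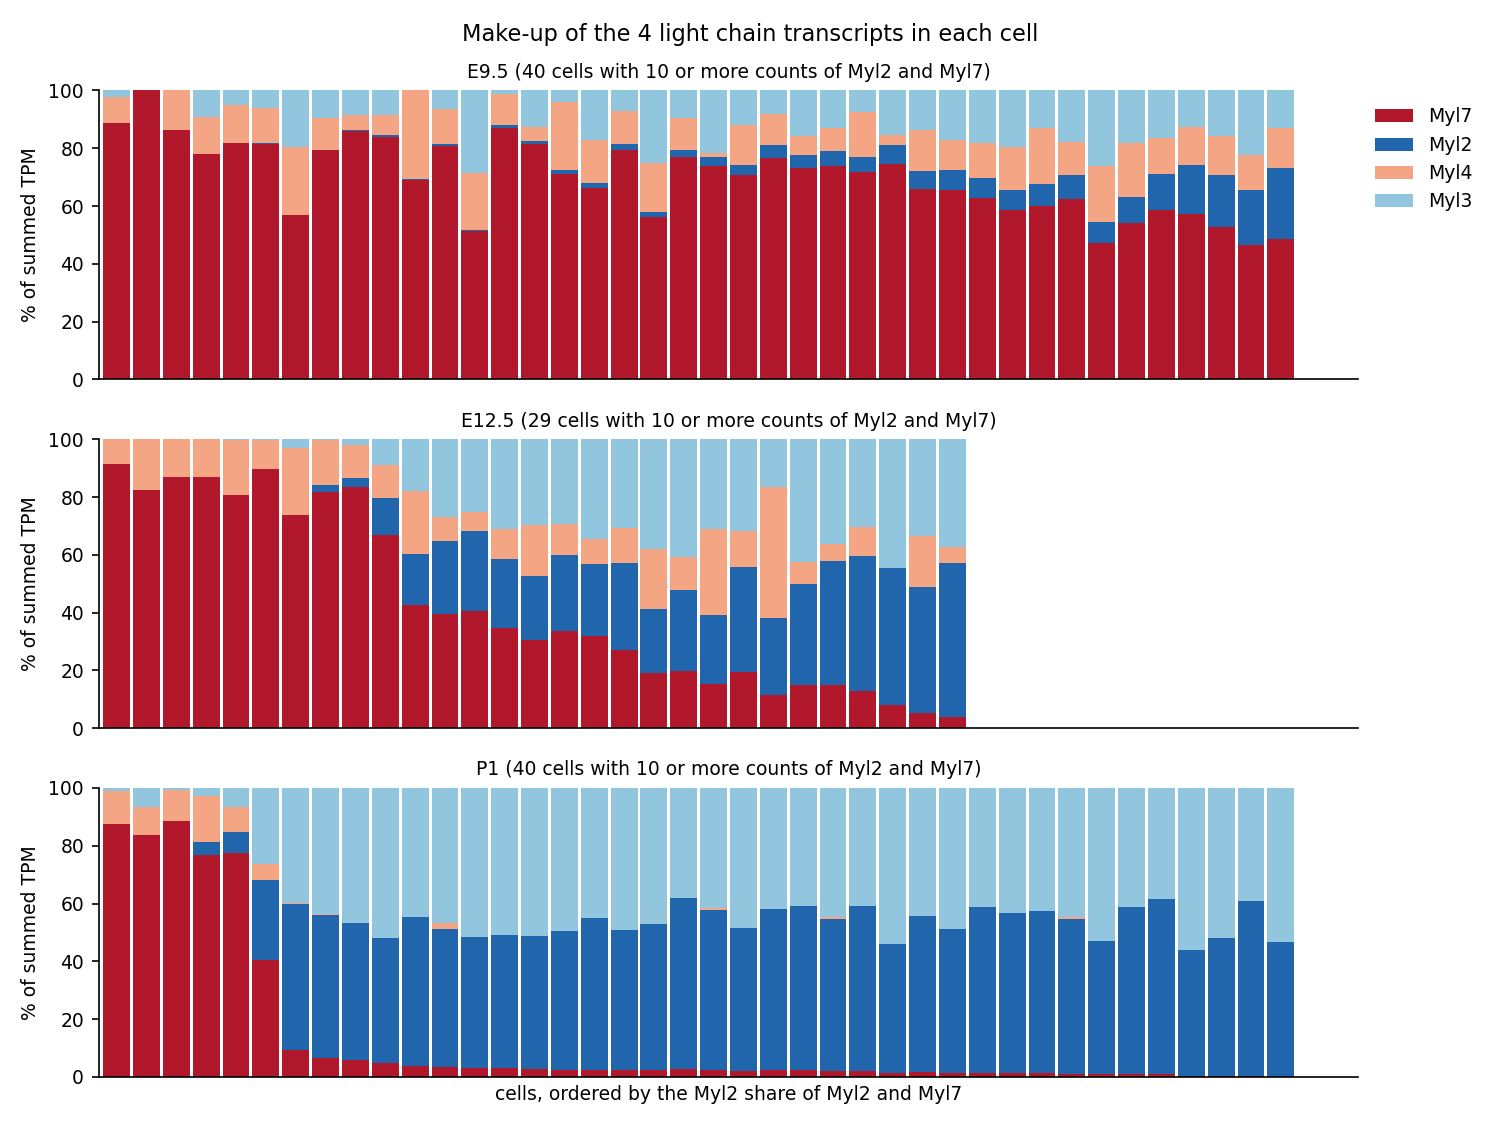
Share of Myl2, Myl3, Myl4 and Myl7 in their summed TPM (vertical axis, percent) for every cell with 10 or more counts of Myl2 and Myl7, ordered within each time point by the Myl2 share of Myl2 and Myl7; each column is 1 cell. Myl7 fills most of the E9.5 columns, E12.5 columns grade from Myl7 with Myl4 to Myl2 with Myl3, and P1 columns are mostly Myl2 and Myl3 except for the 5 at the low end, which have Myl2 shares of 0% to 8.77%.

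The E12.5 cells with no Myl2 count also lacked most Myl3. These 6 cells, all of set C, are named by their Myl2 count, so that their values are a description. They held 0 to 84.2 CPM of Myl3, 2286 to 4519 CPM of Myl4 and 11121 to 19810 CPM of Myl7. The other 14 cells of set C held 1779 to 5846 CPM of Myl2, 2541 to 7274 CPM of Myl3, 17.6 to 3720 CPM of Myl4 and 318 to 14363 CPM of Myl7. The 6 cells were therefore apart from the other 14 in Myl3, whose ranges do not overlap, but overlapped them in Myl4 and Myl7. Nr2f2, a transcription factor required for atrial identity, was at 199 to 1752 CPM in the 6 cells and at 0 to 127 CPM in the other 14. Sln, the atrial inhibitor of the sarcoplasmic reticulum calcium pump, was above 0 in 4 of the 6 and at 0 in the other 14. Not all genes of the atrial list were found in the 6: Tbx5 was above 0 in 6 of them and in 4 of the other 14, and Nr2f1 in 5 and 2, but Nppa in 1 and 7, Gja5 in 1 and 3, Angpt1 in 2 and 3, Dkk3 in 3 and 5 and Mybphl in 3 and 1. Kcnip2, on the ventricular list, reached 10 counts in 1 E12.5 cell, which was one of the 6. Other genes of this list were read in the 9 E12.5 cells with Myl2 shares at or under 10%, which include the 6. Fhl2 reached 10 counts in 7 of the 9 and Cited1 and Lbh in 5 each, but Irx4, Hey2, Hand1 and Mpped2 in 1 each. Myh7, the slow heavy chain, was at 13.5 to 50.6 CPM against 1245 to 4250 CPM, and Pln, the pump inhibitor of ventricular muscle, at 0 to 334 CPM against 487 to 4217 CPM. Their total counts were 148258 to 592682, against 253141 to 738496 in the other 14, and 2 of the 6 (148258 and 162654) were shallower than all of these. Titles ending in "no", which the labels do not explain, were carried by 4 of the 6 cells and 5 of the other 14, and without all such cells Myl2 and Myl7 were found together in 18 of 20 E12.5 cells.

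Set N523 held 3 cells with a Myl2 share under 10%. In cells 28, 25 and 22 the Myl2 share of the pair was 0.068%, 2.75% and 3.48%, with Myl2 at 6.62, 1042 and 645 CPM and Nr2f2 at 164, 572 and 741 CPM. In the same order Myl3 was at 539.9, 224 and 565 CPM, above all 6 cells of set C without Myl2. Pln was at 0, 1655 and 188 CPM, and Myh7 was at 2756 and 2143 CPM in cells 25 and 22, above those 6 cells, but within their range in cell 28. None of the other 5 N523 cells was under 40.8%, and their Nr2f2 was at 0 to 27.6 CPM. Cells 29 and 24 of N523 combined shares of 60.8% and 70.1% with the highest Nppa (atrial natriuretic peptide) at this age, 21985 and 32004 CPM, with Myl4 at 6609 and 7986 CPM and Myh7 at 12.4 and 204 CPM. The highest share at E12.5, 93.3%, was that of cell 13 of set C, with 318 CPM of Myl7.

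At P1 the cells split further. In 6 cells the Myl2 share was 0%, 0.031%, 0.035%, 5.59%, 8.77% and 40.7%, and in the other 34 with a share it was 84.3% to 100%. The 6 held 6399 to 23043 CPM of Myl7, 1334 to 4389 CPM of Myl4, 0 to 4718 CPM of Myl2 and 164 to 6299 CPM of Myl3. The 34 held 0 to 1117 CPM of Myl7, 0 to 458 CPM of Myl4, 4646 to 11491 CPM of Myl2 and 6339 to 12009 CPM of Myl3. The share itself sorted these cells by Myl2 and Myl7, and the Myl2 ranges still overlapped at 4646 to 4718 CPM. The ranges of Myl4 and of Myl3, which the share does not use, did not overlap. Nr2f2 was at 66.8 to 166 CPM in the 6 and at 0 in all 34. Sln was at 1351 to 6034 CPM in the 6 and at 0 to 74.8 CPM in the 34, above 0 in 4 of them. Nppa ran from 3908 to 120233 CPM against 0 to 8556 CPM, and Pln from 160 to 4763 CPM against 3456 to 12883 CPM, both with overlap. Mylk3 was above 0 in 3 of the 6, at up to 194 CPM, and in 27 of the 34, at up to 953 CPM.

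The Myl2 shares were also read by the chamber genes that a cell held. With 10 counts or more of Nr2f2, 27 E9.5 cells had Myl2 shares of 0% to 22.7%, against 0.061% to 33.5% in the other 13. At E12.5, 13 cells with Nr2f2 had shares of 0% to 53.5% and the other 16 had 38.6% to 93.3%. At P1, 6 cells with Nr2f2 and a share had values of 0% to 40.7% and the other 34 had 84.3% to 100%. For Nr2f2 the ranges thus overlapped almost whole at E9.5, in part at E12.5 and not at P1. Of the other atrial genes, Dkk3 and Tbx5 were found at this level in 6 and 5 P1 cells, all with shares of 0% to 40.7%. Nppa was found in 8 P1 cells and Angpt1 in 6 with shares of 90% or more, Stard10 in 1 cell at 96.03% and Gja5 in 6 cells from 0% to 88.6%, so that these genes did not part the P1 cells by share. At E12.5, 16 cells with Nppa had a median share of 53.1%, and 4 of them lay at or under 10%. Sln was found at this level in 0 E9.5 cells, 6 E12.5 cells (5 of them at or under 10%) and 7 P1 cells (5 at or under 10%, 1 at 97.8%). Irx4, a transcription factor of the ventricle, was found in 8 P1 cells with shares of 84.3% to 99.1%, and Hey2, another, in 6 P1 cells with 88.6% to 99.6%, while Lbh, on the same list, was found in 12 P1 cells from 8.77% to 97.8%. Fhl2, Myh7 and Pln of this list were found in 36, 35 and 40 P1 cells with a share, each from 0% to 100%. Cited1 was found in 13 from 40.7% to 98.1%, and Irx5, Mpped2 and Kcnip2 in 1, 3 and 1, all at 90% or more. At E12.5 the shares ran from 3.48% to 85.3% for Irx4 (8 cells) and from 2.75% to 93.3% for Hey2 (14 cells). At E9.5 Irx4 and Hey2 were found in cells of 0.38% to 29.2% (Irx4, 13 cells) and 0.51% to 33.5% (Hey2, 11 cells with a share). The other E9.5 cells ran from 0% to 33.5% for Irx4 and from 0% to 29.2% for Hey2. Myl7 was thus the main regulatory transcript at E9.5 with or without these factors.

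**Figure D5:**
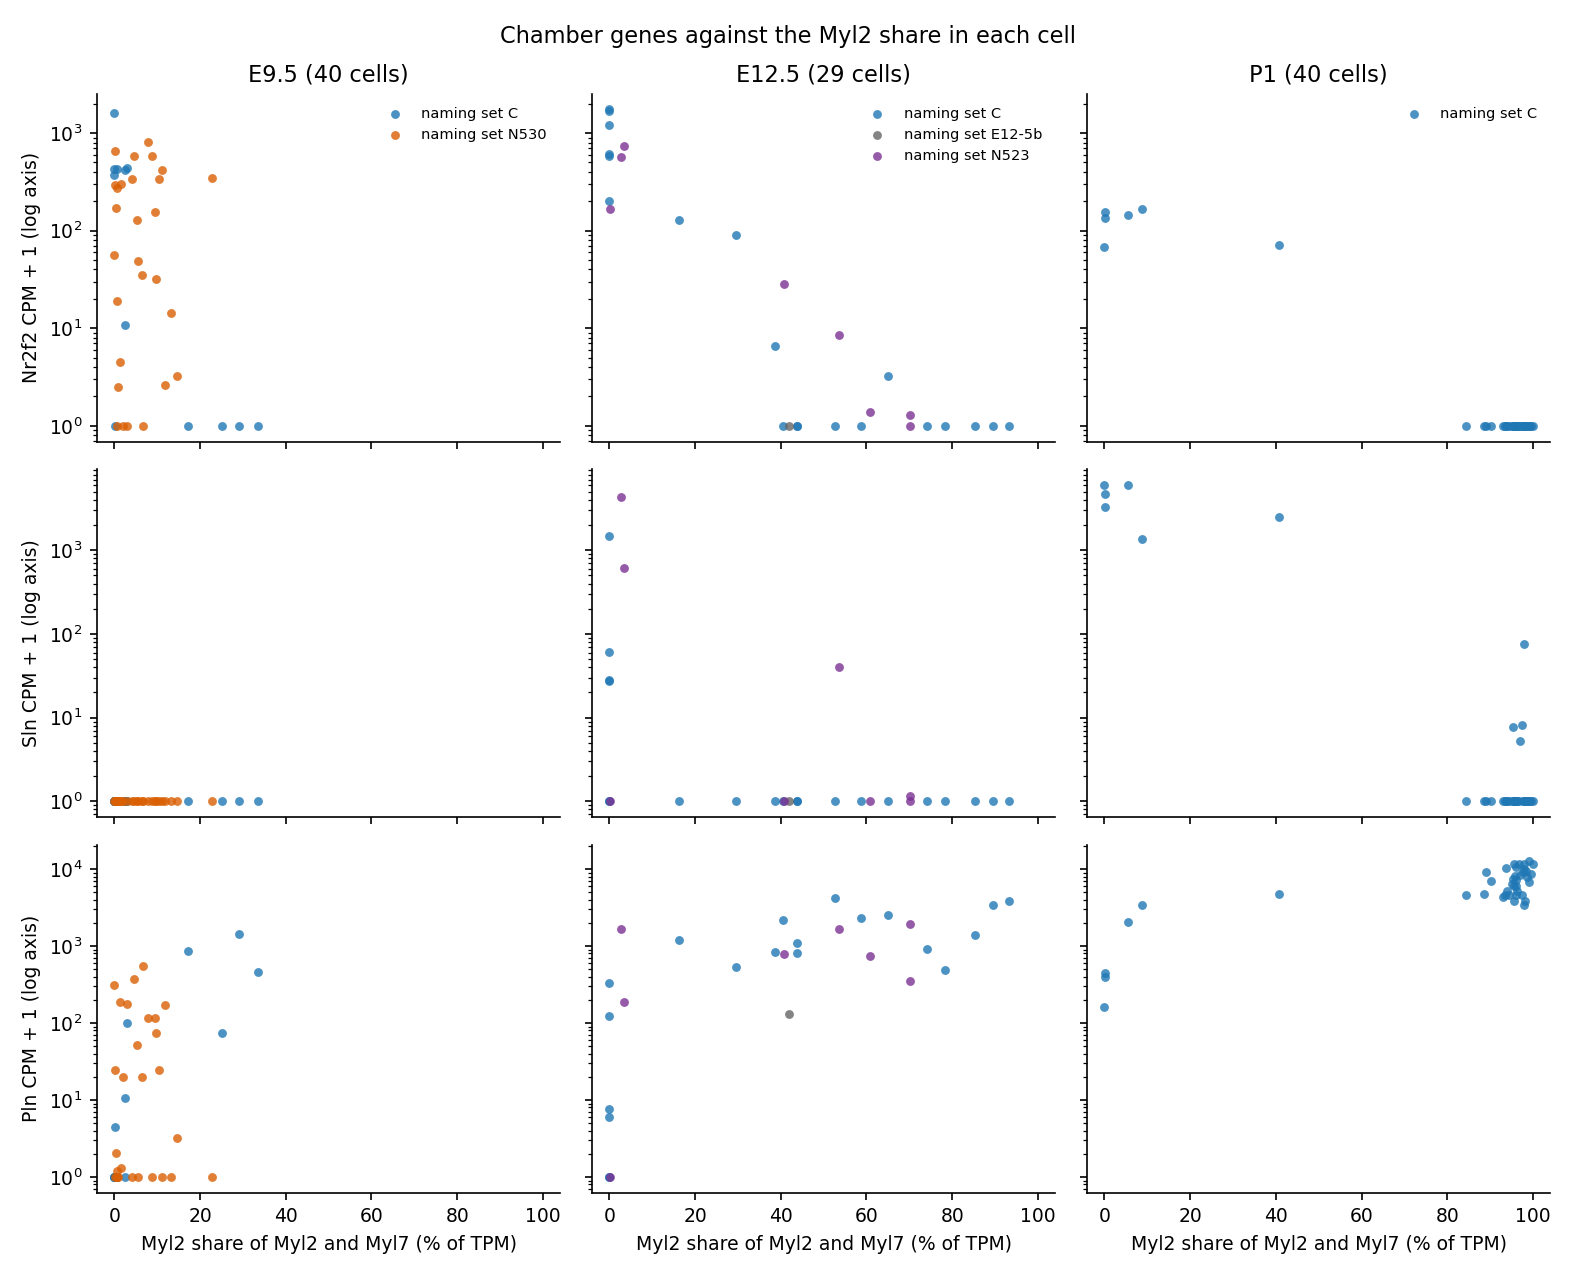
CPM + 1 of Nr2f2, Sln and Pln (rows, log axes) against the Myl2 share of Myl2 and Myl7 in percent (horizontal axis) in every cell with a share, by time point (columns). At P1 the 6 cells under 50% carry Nr2f2 at 66.8 to 166 CPM and the 34 others carry none, while at E9.5 cells with and without Nr2f2 share the low end.

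Across cells of 1 age, the pairs of chamber genes came apart between E9.5 and E12.5. The correlations are Spearman rho over cells thinned to 100000 counts (42, 29 and 38 cells). They are given as descriptions, since cells are not replicates and the thinned counts of every cell add up to the same total. Myl2 and Myl7 had rhos of 0.22, -0.75 and -0.24 in the order of age. Within sets it was 0.17 (C) and 0.25 (N530) at E9.5, and -0.80 (C) and -0.86 (N523) at E12.5. Myl2 and Myl3, the ventricular chains, stayed positive at 0.56, 0.82 and 0.67, and so did Myl4 and Myl7, the atrial chains, at 0.68, 0.57 and 0.65. Within the E12.5 sets, however, Myl4 and Myl7 had a rho of 0.77 in set C (20 cells) and of 0.07 in N523 (8 cells). Myl2 and Myl4 went from 0.37 to -0.46 and -0.23, and Myl3 and Myl4 from 0.59 to -0.33 and -0.34. Mylk3 had a rho of 0.53, 0.47 and 0.15 with Myl2 and of 0.15, -0.41 and -0.39 with Myl7. Without the cells low in cardiomyocyte genes, the E9.5 rho of Myl2 with Myl7 was 0.05 and with Myl3 0.46.

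The signs of the correlations with the lists of chamber genes changed with age too. They were counted over all thinned cells of an age, with naming sets together and the cells low in cardiomyocyte genes included. Of the atrial genes found in at least 5 cells, 5 of 10 had a positive rho with Myl2 at E9.5, 2 of 11 at E12.5 and 0 of 9 at P1, with medians of 0.01, -0.36 and -0.49. With Myl7, 7 of 10, 10 of 11 and 9 of 9 were positive, and with Myl4 6 of 10, 11 of 11 and 9 of 9. Of the ventricular genes, 9 of 9, 9 of 9 and 6 of 8 were positive with Myl2, and 6 of 9, 0 of 9 and 1 of 8 with Myl7. Nr2f2 itself had a rho of -0.27, -0.81 and -0.66 with Myl2, and Pln one of 0.52, 0.72 and 0.41. With Mylk3 the median rho of the atrial list was 0.08, -0.30 and -0.28 and that of the ventricular list 0.23, 0.14 and 0.27.

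The genes whose pattern over 109 cells was most like that of a member were often other members. Among 4818 genes found in at least 25% of cells, the closest to Myl2 were Myl3 (rho 0.90), Pln (0.86), Mb (myoglobin, 0.76), Uqcrq (a subunit of respiratory complex III, 0.75) and Fabp3 (the heart fatty acid carrier, 0.75). The closest to Myl3 were Myl2 (0.90), Pln (0.78), Cox7a2 (0.74), Atp5g1 (0.73) and Mb (0.72). Those closest to Myl4 were Myl7 (0.85), Gpx3 (0.71), Myl1 (another essential light chain, 0.63), Ubb (0.61) and Cnn1 (0.60), and those closest to Myl7 were Myl4 (0.85), Gpx3 (0.74), Myl1 (0.71), Tbx5 (0.67) and Ankrd1 (0.65). Myl2 and Myl7 had a rho of -0.64, which put Myl2 last of the 4818 genes for Myl7. These values mix ages and sets. Medians of the rho within the 5 sets were lower for Myl2 with Myl3 and for Myl4 with Myl7, but higher for Mylk3 with Myl2. For Myl2 they were led by Myl3 (0.74), Cox6b1 and Cycs (both 0.52), for Myl3 by Myl2 (0.74), Hprt (0.62) and Aldoa (0.59), for Myl4 by Slc25a4 (0.68), Myl7 (0.65) and Csrp3 (0.63), and for Myl7 by Pgam2 (0.69), Myl4 (0.65) and Tpm1 (0.65). For Mylk3 no gene exceeded 0.41 over all cells, where Myl3 (0.41), Myl2 (0.39), Fam82b (0.36), Scamp1 (0.35) and Hrc (0.35) came closest, and within sets Tmem30a (0.52), Myl2 (0.51) and Actr10 (0.51).

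The wider light chain machinery, a list of 25 genes for other light chains, heavy chains, kinases and phosphatase subunits, is given by its counts. From E9.5 to P1, 2 of 18 tested genes were called higher and 3 lower (7.643% and 19.19% of all tested genes), with a median log2 ratio of -0.38 beside -0.60 for all. Higher were Ppp1r12b, the striated muscle subunit that targets the phosphatase to myosin (15.6 to 92.2 CPM, log2 ratio 2.56), and Myh7b (10.3 to 67.3 CPM, 2.70). Lower were Myl6, the essential chain of smooth and nonmuscle myosin (775 to 164 CPM, -2.24), the heavy chain Myh7 (4114 to 297 CPM, -3.79), and Mylpf, the regulatory chain of fast skeletal muscle. Mylpf had 83.8 CPM at E9.5 and no count at P1, which is at least 190.4-fold lower at a limit of 3 counts over the P1 cells.
From E12.5 to P1, 3 of 17 tested genes were called higher and 2 lower (10.1% and 15.29% of all), with a median of 0.03 beside -0.32. Ppp1r12b (log2 ratio 3.10), Myh7b (3.03) and Myh6, the fast heavy chain (1360.0 to 11213 CPM, 3.04), were higher, and Myl1 (1728 to 352 CPM, -2.29) and Myh7 (-2.74) were lower. From E9.5 to E12.5, 0 of 16 were called higher and 3 lower (5.141% and 12.48% of all), with a median of -0.37 beside -0.20. Mylpf (to 1.40 CPM, -5.90), Ppp1r12a, the smooth muscle type of the same phosphatase subunit (367 to 54.7 CPM, -2.75), and Myh6 (8217 to 1360.0 CPM, -2.60) were lower. Myl1 was thus the only other light chain on the list that was called lower from E12.5 to P1, where Myl4 was also lower. Myh6 and Myh7 also stand on the cardiomyocyte and the ventricular list.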

How the data were processed

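RNA of sorted αMHC-GFP+ cells was amplified with SMART-Seq V4 chemistry on a Fluidigm C1 system and sequenced from Nextera XT libraries as single reads of 75 bases. OLego was the authors' aligner, and they deposited read counts per gene made with featureCounts (builds GRCm38 and mm10 in the submitters' processing notes), and the authors computed the deposited TPM from these counts. The strand setting of the counting is not given in the sources used here, so that overlapping antisense genes cannot be told apart.

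Cells with 2000 or more genes were kept, which left out 11 P1 cells. CPM were counts per 1000000 of the cell's total, or of the summed total when pooled. TPM served to compare levels of different genes, for shares and sums over genes, and as an alternative for ratios. Pooled CPM carry exact Poisson and shares exact Clopper-Pearson intervals at 95%. There were no molecular identifiers, and intervals and limits therefore cover counting error only. The spread of a log2 ratio is the SD over combinations of naming sets of 6 or more cells. The combinations reuse the same pools, and for ratios with P1 they hold the spread of the embryonic sets only. Thinning to 100000 counts left 109 cells (3 P1 cells were shallower). Python 3.11.15, pandas 2.3.3, numpy 2.4.6 and scipy 1.17.1 were used, matplotlib 3.10.9 for figures, and edgeR 4.0.16 in R 4.3.3 for TMM factors only. On simulated data with 200 genes changed 16-fold (2167, 1975 and 2114 genes for P1 to E9.5, P1 to E12.5 and E12.5 to E9.5), the call rule recovered 100 of 100 raised and 100 of 100 lowered genes, except 99 of 100 raised genes for E12.5 to E9.5, where 1 unchanged gene was also called. The planted change was far above the 4-fold bound and no difference between naming sets was simulated. How the rule behaves near the bound or under such differences was therefore not tested.

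Genes named are the members, genes of the lists, and for each member the 5 genes with the highest rho over all cells and the 3 with the highest median rho within sets. The members and lists were chosen with earlier results of these data known. Alternatives were 1000 or 3000 genes per cell, 2 or 10 counts or 100 CPM for detection, thinning, means and medians over cells, TMM factors, deposited TPM, no minimum level, a 2-fold bound, single naming sets, and leaving out the cell with the most counts or cells titled "no". Detection at 1000 CPM and leaving out cells low in cardiomyocyte genes or only the E12.5 cell with the most counts were added after the data were seen.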

Additional observations from a re-analysis of the deposited data

Results flagged for a closer look

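The 11 P1 cells with fewer than 2000 genes entered no comparison. Their pooled levels were 8864 CPM of Myl2 (95% Poisson interval 8647 to 9085, counting error only), 9490.5 CPM of Myl3 (9266 to 9719), 138.5 CPM of Myl4 (113 to 169), 311 CPM of Myl7 (271 to 354) and 159 CPM of Mylk3 (132 to 192), all above the limit that a count of 0 would allow. Myl2 and Myl3 were found in 11 of 11 cells, Myl4 in 4, Myl7 in 7 and Mylk3 in 9. The highest cells held 783 CPM of Myl4 and 818 CPM of Myl7. In the 41 P1 cells that were kept the pooled levels were 6344 CPM of Myl2, 8080.0 CPM of Myl3, 453 CPM of Myl4, 2447 CPM of Myl7 and 204 CPM of Mylk3. The difference between the kept and the left-out cells was not tested.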

How the results depend on the processing

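No paired analysis was possible because the labels give no animal, chip or replicate number and the results come from no test. Of all alternative values, 217 stayed within the spread of the sets, the interval of a share or 1.5 times a count, 91 moved by more, and 2 turned the direction of a ratio larger than its spread. In all, 7 ratios had another sign than the main value: Myl7 from E9.5 to E12.5 in 2, Mylk3 from E9.5 to P1 in 2, Myl4 from E9.5 to E12.5 in 2 (-0.57 and -0.03) and Myl3 from E9.5 to E12.5 in 1 (-0.0026). Values given for the members are log2 ratios.

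On medians over cells, P1 to E9.5 was 4.36 for Myl2, -4.61 for Myl7 and 1.52 for Mylk3, P1 to E12.5 was 1.23 for Myl2, 1.51 for Myl3, -3.46 for Myl7 and 2.74 for Mylk3, and E12.5 to E9.5 was 3.13 for Myl2. On means over cells, P1 to E12.5 was 1.38 for Myl2, 1.22 for Myl3 and 1.96 for Mylk3, and E12.5 to E9.5 was -2.47 for Mylk3 on deposited TPM. In set C alone, P1 to E9.5 was 3.39 for Myl2, 2.53 for Myl3, -1.82 for Myl4, -1.34 for Myl7 and 0.50 for Mylk3, P1 to E12.5 was 1.17 for Myl3, -2.24 for Myl4, -1.34 for Myl7 and 2.08 for Mylk3, and E12.5 to E9.5 was 2.12 for Myl2, 1.36 for Myl3 and 0.0062 for Myl7, whose direction turned. For N523 to E9.5 set C the values were 2.15 for Myl2, 1.64 for Myl3, 1.69 for Myl4, 0.31 for Myl7, which turned too, and -0.68 for Mylk3, and for E12.5 set C to N530 they were -0.57 for Myl4 and -2.48 for Mylk3. The cause of the turns was not tested.

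For P1 to E12.5, thinning gave 1.36 for Myl2, 1.22 for Myl3, -1.37 for Myl7 and 2.13 for Mylk3, TMM factors 0.99 for Myl2, 0.68 for Myl3 and -1.85 for Myl7, and 3000 genes a cell 1.23 for Myl2, 0.71 for Myl3, -1.94 for Myl7 and 0.51 for Mylk3. There Myl2 was 1.31 with 1000 genes a cell, 1.28 without cells titled "no" and 1.30 without cells low in cardiomyocyte genes. TMM factors gave 2.28 for Myl2 from E9.5 to E12.5. Without the cell with the most counts at both ages, P1 to E12.5 was 1.34 for Myl2, -1.22 for Myl7 and 3.53 for Mylk3, and E12.5 to E9.5 was -3.75 for Mylk3. Without that of E12.5 alone, P1 to E12.5 was 1.37 for Myl2, -0.92 for Myl7 and 3.71 for Mylk3, and E12.5 to E9.5 was -1.41 for Myl7 and -4.08 for Mylk3.

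With no minimum level 1833 genes were called higher and 2553 lower at P1 than at E9.5, 2849 and 1525 when P1 was set against E12.5, and 585 and 2146 when E12.5 was set against E9.5. At a 2-fold bound the numbers were 779 and 1639, 778 and 1132, and 543 and 920. On means over cells 205 were higher at P1 than at E12.5, and 148 higher and 333 lower at E12.5 than at E9.5. The main numbers were 358 and 899, 422 and 639, and 250 and 607.

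At 100 CPM or more, Myl2 with Myl7 was in 66.7% of E9.5 and 78.0% of P1 cells and Myl2 with Myl4 in 66.7% and 17.1%. At 1000 CPM or more the shares were 26.2%, 58.6% and 9.76% for Myl2 with Myl7, and 26.2%, 58.6% and 4.88% for Myl2 with Myl4. Both pairs were in 64.3% of cells of E9.5 set C, 100% of N530 and 100% of N523. At P1, Myl2 with Myl4 was in 26.8% at 2 counts and 19.5% at 10 counts, and with 3000 genes a cell the pairs were in 100% and 66.7%. The median Myl2 share at E9.5 was 5.40% with 3000 genes a cell, and in N523 the Myl2 and Myl3 shares were 47.2% and 38.97%. Depth limits most what a missing count means at P1, where 1 cell held as few as 69522 counts.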
